A study of Drosophila melanogaster with 34 samples.

Results

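In these embryos the pioneer factor Zelda was exposed to inactivating light only early, and the light was off again well before collection. CRY2-ZLD embryos lit during nuclear cycles (NC) 10 to 12 were set against wild-type embryos lit in the same window, with the members taken as all libraries that the labels place in these groups. There are 4 libraries of each genotype, 8 of the 34 libraries in the series. Each library holds poly(A) RNA of a single Drosophila melanogaster embryo picked 30 minutes into NC14. All embryos, wild type included, carry His2AvRFP, a fluorescent histone used to count nuclear cycles under brief 587 nm light, and CRY2-ZLD embryos also carry Zelda fused to the plant photoreceptor CRY2. Light of 488 nm was given to whole embryos during NC10-12, then none until collection. Other groups serve only for comparison. They are CRY2-ZLD embryos lit during NC10-14 (3 libraries), NC13-14 (4) or NC14 (4), CRY2-ZLD embryos never lit (4), and wild-type embryos lit during NC10-14 (3), NC13-14 (4) or NC14 (4). Wild-type embryos without light were not analysed here.

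Zelda, a zinc-finger protein supplied by the mother, binds the enhancers of early genes, opens the chromatin around them and so allows the first transcription of the zygotic genome. CRY2 proteins cluster under blue light, and in the dark the clusters come apart, so that the fused protein can be switched off for chosen cycles and released again. The NC10-12 window covers the minor wave of zygotic transcription, when genes such as sisA, sc, zen and ftz are first read, whereas NC14 holds the major wave, cellularization and the clearance of maternal RNA. A whole-embryo library measures the sum over all cells. A lower level may therefore come from fewer cells of a type or from less RNA in each, and these cannot be told apart. The labels name single embryos but no parents or collections, so the p-values measure the spread between these embryos.

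The CRY2-ZLD libraries had 19609600, 22184891, 27487170 and 27805136 counts, and the wild-type libraries 20890137, 21457797, 18308733 and 25872643. Mitochondrial large ribosomal RNA took 6.17 to 8.51% of the counts over all 8, and the summed markers of follicle cells and yolk protein stood at 2.25 to 4.13 CPM in CRY2-ZLD embryos, against 0.913 to 2.12 CPM in wild-type embryos, with 5 members at 0 in every one of the 8 libraries. CPM are counts scaled to a common library total after TMM normalisation. CRY2-ZLD replicates 3 and 4 stood apart from CRY2-ZLD replicates 1 and 2. On the leading axis of variation of the 8 libraries, which held 53.8% of the variance, CRY2-ZLD replicates 1 to 4 were at -27.9, -36.9, -101 and -87.3, against 78.9, 61.4, 50.6 and 62.04 for wild-type replicates 1 to 4. The counts that lead each paragraph are therefore given with all 4 CRY2-ZLD libraries and again without replicates 3 and 4. The samples were left as labelled. The sets of sequencing libraries, judged from the numbers in the library names, held the 8 NC10-12 libraries together and the NC10-14, NC13-14 and unlit libraries in another set. Within NC10-12 both genotypes share the set, while a difference between windows cannot be told apart from a difference between sets. The other set was not uniform. Mitochondrial large ribosomal RNA took 0.58 to 3.07% of the counts in its replicates 3 and 4, and 6.03 to 7.77% in its replicates 1 and 2.

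RNAs that the mother lays down and that most embryos clear by this stage separated the CRY2-ZLD libraries from each other. The mRNA of bcd, the maternal anterior determinant, had 9.42, 6.19, 339 and 445 CPM in CRY2-ZLD embryos, against 1.05, 1.23, 1.95 and 1.45 CPM in wild-type embryos. Replicates 3 and 4 were far above the other 6 libraries, and CRY2-ZLD replicates 1 and 2 were also above every wild-type embryo. The fitted difference was log2 difference 7.14, SE 1.24, adjusted p = 5.56e-05, and without replicates 3 and 4 it was 2.46, adjusted p = 0.0685. Transcripts of smg, which encodes the RNA-binding protein Smaug that drives maternal RNA clearance, had 120.5, 142, 1688 and 838 CPM in CRY2-ZLD embryos, against 85.7, 103, 151 and 120.1 CPM in wild-type embryos. CRY2-ZLD replicates 1 and 2 overlapped with wild type, and replicates 3 and 4 did not (log2 difference 2.60, SE 0.53, adjusted p = 0.000312; 0.19, adjusted p = 0.786 without those 2 libraries). The mRNA of twe, a maternal Cdc25 phosphatase, was above every wild-type library in all 4 CRY2-ZLD libraries, with 96.1, 81.5, 291 and 196 CPM in CRY2-ZLD embryos, against 8.69, 23.5, 15.04 and 30.7 CPM in wild-type embryos (log2 difference 3.09, SE 0.59, adjusted p = 0.00017; 2.19, adjusted p = 0.0157 without replicates 3 and 4). BicD, a maternal transport adapter, was higher as well (log2 difference 2.23; 1.27, adjusted p = 0.0362 without replicates 3 and 4). A maternal regulator of the early cell cycles, plu, was lower in all 4, with 6.49, 3.82, 6.45 and 4.64 CPM in CRY2-ZLD embryos, against 23.6, 38, 28.4 and 28.1 CPM in wild-type embryos (log2 difference -2.46, SE 0.35, adjusted p = 4.27e-06). Of 19 tested members of the list of maternal RNAs cleared at this transition, 3 fell and 6 rose. Among all genes tested the shares were 16.5% lower and 16.9% higher. The fit without replicates 3 and 4 gave 3 and 2, against 8.28% and 8.32% of all genes. The summed list was 2713, 2817, 6215 and 4979 CPM in CRY2-ZLD embryos, against 3892, 3742, 3382 and 3537 CPM in wild-type embryos. In this sum replicates 3 and 4 lay above every wild-type embryo, but replicates 1 and 2 lay below. How far these embryos differed in developmental age was not tested.

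**Figure D1:**
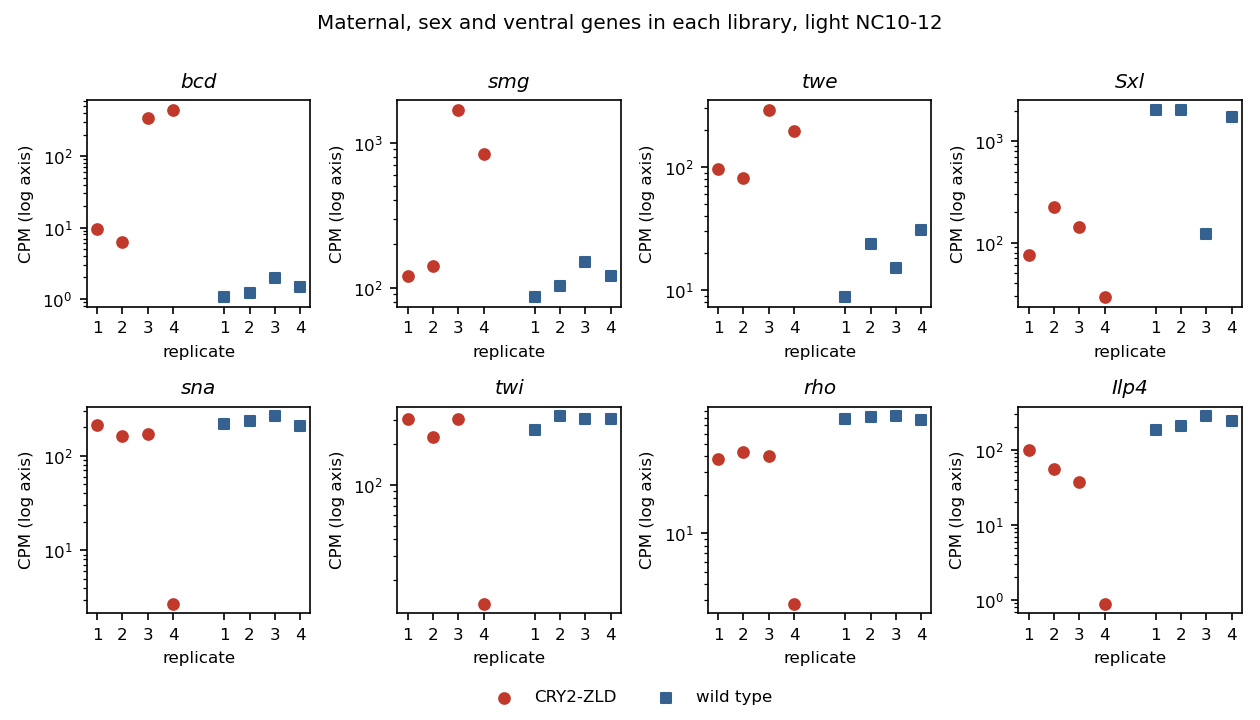
Level of 8 genes in each NC10-12 library, in CPM on a logarithmic axis, with CRY2-ZLD replicates 1 to 4 left of wild-type replicates 1 to 4. Maternal bcd and smg are highest in CRY2-ZLD replicates 3 and 4, the ventral genes sna, twi, rho and Ilp4 are lowest in CRY2-ZLD replicate 4, and Sxl is low in all CRY2-ZLD libraries and in wild-type replicate 3.

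Transcripts of ventral genes were lowest in CRY2-ZLD replicate 4. The mesoderm factor sna had 213, 160.3, 169.7 and 2.72 CPM in CRY2-ZLD embryos, against 217, 231, 263 and 208 CPM in wild-type embryos. Its partner twi had 304, 222, 302 and 13.5 CPM in CRY2-ZLD embryos, against 252, 318, 305 and 305 CPM in wild-type embryos. In both, CRY2-ZLD replicate 4 lay far below the other 7 libraries, which overlapped. The same embryo had the lowest rho, a ventral ectoderm protease, and the lowest Ilp4, an insulin-like peptide of the mesoderm, and its summed mesoderm list was 119.9 CPM, against 859 to 1201 CPM in the other CRY2-ZLD embryos and 1378 to 1704 CPM in wild-type embryos. Neither sna (log2 difference -0.75, SE 0.65, adjusted p = 0.403) nor twi (log2 difference -0.49, SE 0.48, adjusted p = 0.472) passed the test.

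Over all genes, 1567 of the 9519 tested (16.5%) were lower in CRY2-ZLD and 1613 (16.9%) were higher at an adjusted p under 0.05. Without CRY2-ZLD replicates 3 and 4 the counts were 788 lower (8.28%) and 792 higher (8.32%), and 681 of the genes called lower and 763 of those called higher were called in both fits. All 4 CRY2-ZLD libraries lay below all 4 wild-type libraries for 1454 genes (15.3%) and above them for 1475 (15.5%). The median log2 difference of all tested genes was -0.01. With libraries scaled to the summed ribosomal protein counts instead, the median moved to 0.19 and 890.0 genes were lower and 1752.0 higher. Decreases then made up 33.7% of all calls, against 49.3% with TMM.

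Transcripts of zld itself were not reduced. The gene had 464, 1054, 1949 and 1345 CPM in CRY2-ZLD embryos, against 482, 422, 488 and 489 CPM in wild-type embryos. CRY2-ZLD replicates 2, 3 and 4 lay above all wild-type libraries and replicate 1 lay among them (log2 difference 1.35, SE 0.28, adjusted p = 0.000377), and without replicates 3 and 4 the difference did not pass the test (0.69, adjusted p = 0.0923). Light acts on the fusion protein, which these counts do not measure. In embryos never lit the difference of zld from the mean of wild type NC10-14 and NC13-14 was log2 difference -0.63, SE 0.25, adjusted p = 0.0524. His2Av, the gene whose product carries the fluorescent tag, did not differ detectably (log2 difference -0.12, SE 0.18).

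The gap genes, which lay down the broad body regions and are among the known direct targets of Zelda, did not separate from wild type in the test. None of the 14 tested gap and head gap genes passed the test in either direction, with all libraries or without replicates 3 and 4, against the shares of all genes given above, and their median log2 difference was -0.17. An unadjusted p under 0.05 was reached by 2 of them. DESeq2 called 1, hb, limma-voom with sample weights called 2 lower and 1 higher, and leaving out single libraries (CRY2-ZLD replicate 1 or 2, or wild-type replicate 3) gave at most 1 call in a direction. The trunk gap gene gt had 190.4, 218, 117 and 163 CPM in CRY2-ZLD embryos, against 172, 185, 195 and 147 CPM in wild-type embryos. The embryos of both genotypes spread over the same range (log2 difference -0.02, SE 0.36, adjusted p = 0.976), and with ribosomal protein scaling the difference of gt was 0.21. The central gap gene Kr had 257, 257, 309.8 and 307 CPM in CRY2-ZLD embryos, against 263, 312, 436 and 338 CPM in wild-type embryos (log2 difference -0.26, SE 0.33, adjusted p = 0.599). The tailless gene tll, read at the poles, had 107, 109, 40.9 and 68.3 CPM in CRY2-ZLD embryos, against 125, 146, 50.5 and 67.8 CPM in wild-type embryos, with values as scattered among wild-type embryos as among CRY2-ZLD embryos (log2 difference -0.26, SE 0.59, adjusted p = 0.782). The 95% interval of the log2 difference, not adjusted for the number of genes, ran over -0.75 to 0.71 for gt, -0.94 to 0.42 for Kr, -1.46 to 0.95 for tll and 0.19 to 2.28 for hb. The anterior gap gene hb, which has both a maternal and a zygotic transcript, had 372, 263, 1163 and 1898 CPM in CRY2-ZLD embryos, against 285, 260.5, 768 and 261 CPM in wild-type embryos. The CRY2-ZLD replicates with the most bcd also had the most hb, and the difference did not pass the test (log2 difference 1.23, SE 0.51, adjusted p = 0.0627; -0.31, adjusted p = 0.748 without replicates 3 and 4).

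**Figure D2:**
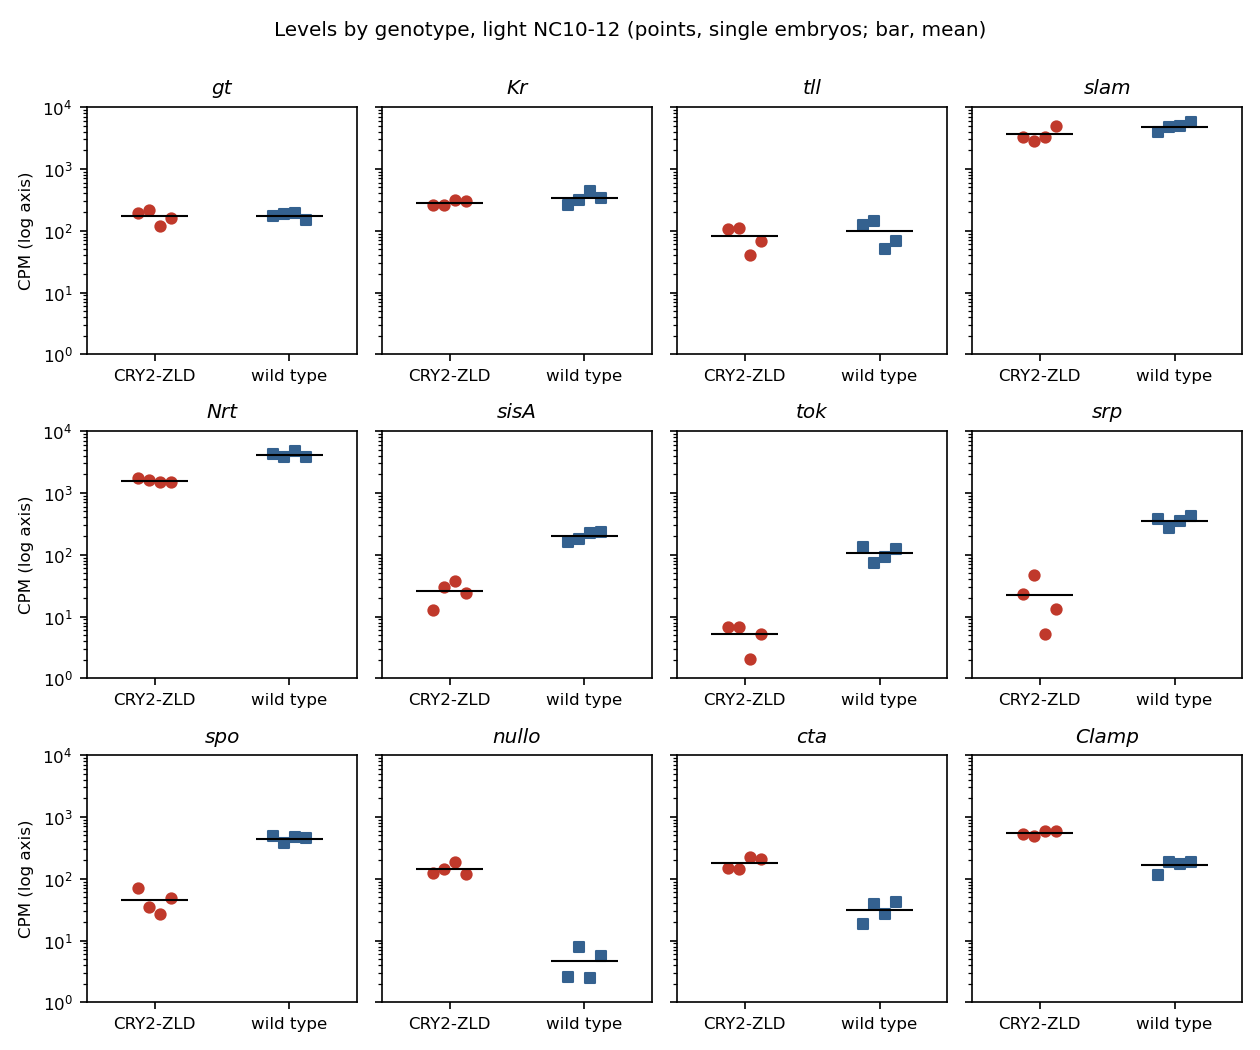
Level of 12 genes in each NC10-12 library, in CPM on a logarithmic axis, with CRY2-ZLD (left) and wild type (right) in each panel and a bar at the mean. The genotypes overlap for gt, Kr, tll and slam, CRY2-ZLD lies below wild type for Nrt, sisA, tok, srp and spo, and above it for nullo, cta and Clamp.

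Cellularization genes, read around the onset of NC14 to close membranes around the nuclei, were called in both directions in shares near those of all genes, 16.5% lower and 16.9% higher. Of 13 tested members 2 fell and 2 rose, with a median of -0.36. The fit without replicates 3 and 4 gave 2 and 1, against 8.28% and 8.32% of all genes. The largest change was in nullo, which encodes a protein that stabilises the early furrow and whose mRNA is normally short-lived. It had 124, 143, 185 and 118 CPM in CRY2-ZLD embryos, against 2.58, 7.89, 2.5 and 5.54 CPM in wild-type embryos. The 2 genotypes lay far apart (log2 difference 4.94, SE 0.79, adjusted p = 2.04e-05; 4.84, adjusted p = 0.000265 without replicates 3 and 4). Neurotactin, the adhesion protein encoded by Nrt, went the other way, with 1711, 1589, 1470 and 1476 CPM in CRY2-ZLD embryos, against 4240, 3742, 4740 and 3830 CPM in wild-type embryos. All CRY2-ZLD embryos lay below all wild-type embryos (log2 difference -1.41, SE 0.21, adjusted p = 6.29e-06). Of the Nrt exon bases 21.8% are shared with an overlapping gene, and without strand reads of shared bases cannot be assigned to either gene. The furrow gene slam had 3303, 2850, 3278 and 4986 CPM in CRY2-ZLD embryos, against 3931, 4725, 4865 and 5656 CPM in wild-type embryos, with overlap between genotypes (log2 difference -0.41, SE 0.35, adjusted p = 0.392). The actin organiser bnk had 307, 268, 454 and 668 CPM in CRY2-ZLD embryos, against 116, 301, 349 and 305 CPM in wild-type embryos, also with overlap (log2 difference 0.66, SE 0.58, adjusted p = 0.413). The kinesin cofactor gene halo was lower in all 4 CRY2-ZLD embryos, with 686, 575, 375 and 464 CPM in CRY2-ZLD embryos, against 854, 1422, 725 and 1304 CPM in wild-type embryos, and just missed the threshold (log2 difference -1.04, SE 0.41, adjusted p = 0.0534).

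The signal by which an embryo counts its X chromosomes is read in the cycles that were lit. Of 10 tested members of this list 4 fell and 2 rose, against 16.5% and 16.9% of all genes. The same numbers were called without replicates 3 and 4, against 8.28% and 8.32% of all genes. Of these latter calls, 3 of the decreases and 2 of the increases were also called with all libraries. The X-linked bZIP gene sisA had 12.98, 29.7, 37.4 and 23.9 CPM in CRY2-ZLD embryos, against 162, 177, 221 and 230.2 CPM in wild-type embryos. Every CRY2-ZLD embryo was well under every wild-type embryo (log2 difference -2.92, SE 0.56, adjusted p = 0.000181; -3.21, adjusted p = 0.00478 without replicates 3 and 4). The X-linked gene run, also a pair-rule gene, was lower too, with 45.1, 99.2, 44.04 and 17.9 CPM in CRY2-ZLD embryos, against 213, 219.9, 197 and 181 CPM in wild-type embryos (log2 difference -1.97, SE 0.40, adjusted p = 0.000335). The X-linked bHLH gene sc moved the other way, with 6.68, 28.5, 81.1 and 14.8 CPM in CRY2-ZLD embryos, against 2.96, 5.69, 3.47 and 2.16 CPM in wild-type embryos. Its CRY2-ZLD values were unequal but all above wild type (log2 difference 3.20, SE 0.64, adjusted p = 0.000283). Another X-linked signal, upd1, a JAK/STAT ligand, overlapped between genotypes, with 69.5, 116, 38.9 and 41.9 CPM in CRY2-ZLD embryos, against 52.7, 83.3, 36.2 and 63.2 CPM in wild-type embryos (log2 difference 0.18, SE 0.55, adjusted p = 0.845). Among the maternal partners of these genes, da was lower (log2 difference -1.94) and her was higher (log2 difference 0.97). Sxl, the switch that this signal turns on in XX embryos, had 75.6, 226, 142 and 28.9 CPM in CRY2-ZLD embryos, against 2039, 2026, 123 and 1731 CPM in wild-type embryos. Wild-type replicate 3 was as low as the CRY2-ZLD embryos, and the other 3 wild-type embryos were far above all of them (log2 difference -3.65, SE 0.97, adjusted p = 0.00437; -3.29, adjusted p = 0.0735 without replicates 3 and 4). An XY embryo normally makes little Sxl, and the labels do not give the sex of the embryos. The dosage compensation gene msl-2 had 44.2, 22.2, 6.24 and 18.5 CPM in CRY2-ZLD embryos, against 148, 119, 309 and 139 CPM in wild-type embryos, all CRY2-ZLD embryos being under all wild-type embryos (log2 difference -2.97, SE 0.70, adjusted p = 0.00145; -2.43, adjusted p = 0.0524 without replicates 3 and 4). The X-coating RNA lncRNA:roX1 overlapped (log2 difference -0.48, adjusted p = 0.397).

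Pair-rule genes, which read the gap pattern into stripes, included several decreases. Of 12 tested members 6 fell and 1 rose, against 16.5% and 16.9% of all genes. In the fit without replicates 3 and 4, 1 fell, run (-1.49, adjusted p = 0.024), and 1 rose, against 8.28% and 8.32%. The late-acting zinc-finger gene opa had 82.8, 179.9, 32.2 and 21.4 CPM in CRY2-ZLD embryos, against 406, 421, 505 and 414 CPM in wild-type embryos, all under wild type (log2 difference -2.46, SE 0.62, adjusted p = 0.00256; -1.73, adjusted p = 0.0859 without replicates 3 and 4). The primary stripe gene hry had 99.6, 118, 21.5 and 29.8 CPM in CRY2-ZLD embryos, against 251, 252, 236 and 219 CPM in wild-type embryos, again with replicates 3 and 4 lowest (log2 difference -1.83, SE 0.50, adjusted p = 0.00508; -1.14, adjusted p = 0.148 without them). The homeobox gene eve had 72.97, 88.8, 24.4 and 37.5 CPM in CRY2-ZLD embryos, against 125, 135, 113 and 125 CPM in wild-type embryos (log2 difference -1.15, SE 0.39, adjusted p = 0.0205; -0.62, adjusted p = 0.345 without replicates 3 and 4). Leaving out either replicate 3 or replicate 4 alone also ended the call of eve (log2 differences -0.91 and -1.004). The homeobox gene ftz, an early NC10-12 transcript, had 195, 234, 78.2 and 59.3 CPM in CRY2-ZLD embryos, against 278, 272, 303 and 242 CPM in wild-type embryos, and the difference did not pass the test (log2 difference -0.95, SE 0.61, adjusted p = 0.247). Its nuclear-receptor partner ftz-f1, a maternal RNA, was the member that rose, with 143, 172, 432 and 403 CPM in CRY2-ZLD embryos, against 6.73, 14.4, 24.5 and 25.7 CPM in wild-type embryos. All CRY2-ZLD embryos lay far above all wild-type embryos (log2 difference 4.01, SE 0.58, adjusted p = 5.25e-06; 3.14, adjusted p = 0.000522 without replicates 3 and 4), and 29.4% of its exon bases are shared with an overlapping non-coding gene.

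Segment polarity genes act later, on the pair-rule pattern. Of 10 tested members 2 fell and 4 rose, against 16.5% and 16.9% of all genes. The fit without replicates 3 and 4 gave 0 and 2, against 8.28% and 8.32% of all genes. Without CRY2-ZLD replicate 3, wild-type replicate 1 or wild-type replicate 2 alone, 2 rose. The Hedgehog receptor ptc fell, with 209.9, 234, 152 and 153 CPM in CRY2-ZLD embryos, against 704, 500.1, 661 and 597 CPM in wild-type embryos (log2 difference -1.72, SE 0.42, adjusted p = 0.00213; -1.47, adjusted p = 0.0613 without replicates 3 and 4). The Wnt inhibitor nkd fell too (log2 difference -2.04; -1.58, adjusted p = 0.126 without replicates 3 and 4). The homeobox gene inv, a paralog of engrailed, rose (log2 difference 2.77). The T-box gene mid rose, with 3.22, 4.24, 31.9 and 2.68 CPM in CRY2-ZLD embryos, against 0.573, 0.294, 0.548 and 0.157 CPM in wild-type embryos, replicate 3 being highest (log2 difference 4.76, SE 0.93, adjusted p = 0.000204; 3.27, adjusted p = 0.00907 without replicates 3 and 4). Among 8 tested Hox genes 1 fell and 0 rose, against 16.5% and 16.9% of all genes. The 1 called was Dfd, which specifies head segments, with 1.15, 1.53, 1.9 and 0.681 CPM in CRY2-ZLD embryos, against 17.2, 12.8, 14.7 and 11.8 CPM in wild-type embryos. All CRY2-ZLD embryos lay far under all wild-type embryos (log2 difference -3.42, SE 0.48, adjusted p = 3.62e-06; -3.39, adjusted p = 0.000415 without replicates 3 and 4).

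Along the dorsal side the BMP pathway sets up the dorsal ectoderm and the amnioserosa, and members of this list moved in both directions. Of 19 tested members 9 fell and 3 rose, against 16.5% and 16.9% of all genes, and the median was -1.27. The fit without replicates 3 and 4 gave 6 and 2, against 8.28% and 8.32% of all genes. The protease gene tok had 6.73, 6.87, 2.06 and 5.19 CPM in CRY2-ZLD embryos, against 133, 74.1, 92.9 and 123 CPM in wild-type embryos (log2 difference -4.34, SE 0.57, adjusted p = 1.32e-06; -3.96, adjusted p = 0.000392 without replicates 3 and 4). Its neighbour and relative tld, which releases BMP from its inhibitor, had 72.7, 55.4, 52.05 and 168 CPM in CRY2-ZLD embryos, against 308, 228, 263 and 337 CPM in wild-type embryos, all under wild type (log2 difference -1.71, SE 0.42, adjusted p = 0.00238). The BMP modulator gene srw had 15, 11.9, 12.7 and 21.2 CPM in CRY2-ZLD embryos, against 47.3, 58.3, 59.8 and 58.5 CPM in wild-type embryos (log2 difference -1.88, SE 0.34, adjusted p = 8.42e-05). Among the transcription factors of the dorsal ectoderm and amnioserosa on the list, some fell and others did not pass. The GATA cofactor ush had 1.63, 2.54, 1.22 and 1.7 CPM in CRY2-ZLD embryos, against 45.7, 10.98, 14.2 and 25.2 CPM in wild-type embryos (log2 difference -3.75, SE 0.65, adjusted p = 5.62e-05). The T-box gene Doc2 had 1.73, 3.48, 0.59 and 0.766 CPM in CRY2-ZLD embryos, against 28.7, 17.6, 12.1 and 16.3 CPM in wild-type embryos (log2 difference -3.50, SE 0.73, adjusted p = 0.000408), and Doc3 was lower too (log2 difference -2.72; -1.89, adjusted p = 0.0547 without replicates 3 and 4). Adjusted p was 0.108 for Doc1, 0.314 for pnr, 0.369 for tup and 0.875 for peb. The 3 increases of the list were in homeobox genes, C15, zen and zen2. C15 had 0.865, 2.67, 2.23 and 1.57 CPM in CRY2-ZLD embryos, against 0, 0.049, 0 and 0 CPM in wild-type embryos (adjusted p = 0.00229), a low level in both genotypes. Transcripts of zen had 267, 199.7, 313 and 419 CPM in CRY2-ZLD embryos, against 95.7, 109, 91.5 and 134 CPM in wild-type embryos (log2 difference 1.48, SE 0.50, adjusted p = 0.0208; 1.12, adjusted p = 0.189 without replicates 3 and 4). Those of zen2 had 8.03, 19.9, 40.7 and 31.01 CPM in CRY2-ZLD embryos, against 1.77, 2.06, 4.2 and 2.48 CPM in wild-type embryos (log2 difference 3.25, SE 0.67, adjusted p = 0.000356). Every CRY2-ZLD embryo was above every wild-type embryo in both genes. The call of zen was lost without CRY2-ZLD replicate 4, wild-type replicate 1 or wild-type replicate 3 (log2 differences 1.27, 1.43 and 1.41). Of 5 GATA genes and cofactors, srp, the factor of endoderm and blood, fell, with 23.2, 47.4, 5.18 and 13.1 CPM in CRY2-ZLD embryos, against 377, 272, 345 and 416 CPM in wild-type embryos, replicate 3 being lowest (log2 difference -3.99, SE 0.65, adjusted p = 2.48e-05; -3.32, adjusted p = 0.00329 without replicates 3 and 4). GATAd, another GATA factor, rose, with 97.7, 100.3, 158 and 117 CPM in CRY2-ZLD embryos, against 29.9, 31.3, 12.5 and 30.97 CPM in wild-type embryos (log2 difference 2.17, SE 0.32, adjusted p = 6.46e-06).

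On the ventral side the summary has to be read beside replicate 4. Of 14 tested mesoderm genes 4 fell and 0 rose, against 16.5% and 16.9% of all genes. Without replicates 3 and 4, 2 fell, against 8.28% of all genes. With ribosomal protein scaling 2 fell as well. The FGF adapter stumps had 6.15, 2.59, 4.3 and 0.17 CPM in CRY2-ZLD embryos, against 98.8, 34.4, 91.2 and 72.04 CPM in wild-type embryos, so that replicates 1 to 3 were also far under wild type (log2 difference -4.49, SE 0.82, adjusted p = 0.000103; -4.09, adjusted p = 0.00497 without replicates 3 and 4). Ilp4 had 98.6, 55.8, 37.3 and 0.893 CPM in CRY2-ZLD embryos, against 182, 205, 281 and 243 CPM in wild-type embryos (log2 difference -2.24, SE 0.60, adjusted p = 0.00438; -1.56, adjusted p = 0.0213 without replicates 3 and 4). The FGF receptor htl and the guidance cue NetA were called with all libraries (log2 differences -1.96 and -1.96) but not without replicates 3 and 4 (-1.17 and -1.44). In the neurogenic ectoderm 2 of 14 tested genes fell, rho and the EGF-receptor ligand vn, a share near the 16.5% of all genes. Without replicates 3 and 4 or with ribosomal protein scaling 0 did. The BMP inhibitor sog had 189, 504, 455 and 162 CPM in CRY2-ZLD embryos, against 619, 572, 577 and 384 CPM in wild-type embryos (log2 difference -0.71, SE 0.36, adjusted p = 0.132). Among 12 tested genes of gastrulation and germband movements 4 fell and 1 rose, against 16.5% and 16.9% of all genes. The increase was in cta, a maternal G-protein subunit of mesoderm folding, with 147, 142, 222 and 206 CPM in CRY2-ZLD embryos, against 18.7, 38.5, 26.8 and 42.8 CPM in wild-type embryos (log2 difference 2.50, SE 0.35, adjusted p = 3.62e-06). The decreases included Tollo, a Toll receptor of germband extension, with 21.2, 27.8, 1.94 and 7.57 CPM in CRY2-ZLD embryos, against 165, 79.1, 61.2 and 68.1 CPM in wild-type embryos (log2 difference -2.67, SE 0.67, adjusted p = 0.00259; -1.93, adjusted p = 0.0712 without replicates 3 and 4). They also included mthl1, a zygotic G-protein-coupled receptor of mesoderm folding (log2 difference -1.73; -1.57, adjusted p = 0.017 without replicates 3 and 4). At the poles the hindgut T-box gene byn had 6.1, 15.1, 3.75 and 1.28 CPM in CRY2-ZLD embryos, against 87.1, 78.9, 28.7 and 35.7 CPM in wild-type embryos (log2 difference -3.13, SE 0.74, adjusted p = 0.00155; -2.44, adjusted p = 0.0552 without replicates 3 and 4). The maternal receptor gene tor and cad, a posterior homeobox gene with maternal RNA, were higher (log2 differences 1.89 and 1.48; 0.98 and 1.03 without replicates 3 and 4, neither of which passed the test, and 1.04 for cad without replicate 3 alone).

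Some members of the Bearded family, small antagonists of Notch signalling, were lower. Of 12 tested Bearded and E(spl) genes 5 fell and 0 rose, against 16.5% and 16.9% of all genes. The number lower was 2 without replicates 3 and 4, where 8.28% of all genes fell, and 2 with ribosomal protein scaling. Leaving out CRY2-ZLD replicate 1, 3 or 4 or wild-type replicate 1 or 3 alone left 2 or 3. Ocho had 50.3, 40.8, 31.8 and 47.9 CPM in CRY2-ZLD embryos, against 133, 156, 164 and 159 CPM in wild-type embryos (log2 difference -1.84, SE 0.36, adjusted p = 0.000224). Bro had 43.8, 18.7, 20.5 and 53.1 CPM in CRY2-ZLD embryos, against 76.1, 130.0, 106 and 119 CPM in wild-type embryos (log2 difference -1.66, SE 0.39, adjusted p = 0.00153). All CRY2-ZLD embryos lay under all wild-type embryos in both. The Elba insulator list holds genes of insulator proteins that act in the early embryo. Against 16.5% of all genes, 2 of its 4 genes fell. These were insv, with 395, 340.1, 288 and 338 CPM in CRY2-ZLD embryos, against 552, 782, 667 and 628 CPM in wild-type embryos (log2 difference -0.95, SE 0.17, adjusted p = 9.46e-05), and Elba1 (log2 difference -1.03; -1.04, adjusted p = 0.0716 without replicates 3 and 4).

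Several genes of ecdysone synthesis were lower, and the receptor was higher. Of 12 tested members 6 fell and 1 rose, against 16.5% and 16.9% of all genes. The fit without replicates 3 and 4 gave 4 and 1, against 8.28% and 8.32% of all genes. The cytochrome P450 gene spo had 69.7, 34.4, 27.2 and 48.2 CPM in CRY2-ZLD embryos, against 485, 379.9, 468 and 453 CPM in wild-type embryos (log2 difference -3.32, SE 0.43, adjusted p = 1.23e-06). The P450 gene phtm had 13.7, 25.2, 3.08 and 1.66 CPM in CRY2-ZLD embryos, against 110.5, 83.1, 50.8 and 102 CPM in wild-type embryos, with replicates 3 and 4 lowest (log2 difference -2.99, SE 0.57, adjusted p = 0.00016; -2.15, adjusted p = 0.00611 without them). Blimp-1, a transcription repressor of the ecdysone response, had 6.2, 10.8, 1.52 and 3.06 CPM in CRY2-ZLD embryos, against 95.9, 76.7, 125 and 64.8 CPM in wild-type embryos (log2 difference -4.07, SE 0.63, adjusted p = 1.3e-05). In all 3 no CRY2-ZLD embryo reached the lowest wild-type value. The receptor gene EcR, whose RNA is also maternal, had 162, 172, 278 and 283 CPM in CRY2-ZLD embryos, against 52.5, 77.6, 99.1 and 86.2 CPM in wild-type embryos, above all wild-type embryos (log2 difference 1.505, SE 0.26, adjusted p = 6.64e-05).

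Regulators of genome activation were counted with zld, whose increase is given above. Of 14 tested members 2 fell and 7 rose, against 16.5% and 16.9% of all genes. The fit without replicates 3 and 4 gave 2 and 4, against 8.28% and 8.32% of all genes. Clamp, which encodes another early chromatin-opening protein, had 519, 489, 598 and 595 CPM in CRY2-ZLD embryos, against 114, 184, 171 and 189 CPM in wild-type embryos. The CRY2-ZLD embryos were close to each other and all above wild type (log2 difference 1.74, SE 0.24, adjusted p = 2.56e-06; 1.62, adjusted p = 0.000215 without replicates 3 and 4). The Polycomb group gene Psc had 139, 161, 386 and 228 CPM in CRY2-ZLD embryos, against 69.8, 69.3, 59.1 and 59.7 CPM in wild-type embryos, with replicate 3 highest (log2 difference 1.83, SE 0.30, adjusted p = 3e-05). The JAK/STAT transcription factor Stat92E was higher too (log2 difference 1.18). Of 8 tested JAK/STAT genes 3 rose, hop, Stat92E and Ptp61F, against 16.9% of all genes. On the same list 1 fell, the feedback inhibitor Socs36E (log2 difference -1.73), against 16.5% of all genes. Among the histone variants and linker the embryonic linker BigH1 rose (log2 difference 1.79; 1.27, adjusted p = 0.0897 without replicates 3 and 4), and the centromere histone cid and the methyltransferase Set8 fell (log2 differences -2.41 and -1.44). Of 89 tested cytosolic ribosomal protein genes 1 fell and 1 rose, against 16.5% and 16.9% of all genes.

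Genes of stress and cell death were counted in several lists. Of 13 tested members of the p53 and apoptosis list 4 fell and 6 rose, against 16.5% and 16.9% of all genes. The fit without replicates 3 and 4 gave 1 and 5, against 8.28% and 8.32% of all genes. Xrp1, a stress-induced bZIP factor, had 17.02, 17.5, 15.3 and 22.2 CPM in CRY2-ZLD embryos, against 1.77, 1.42, 2.5 and 1.49 CPM in wild-type embryos. The CRY2-ZLD embryos were close together and all far above wild type (log2 difference 3.33, SE 0.49, adjusted p = 7.43e-06), and unlit CRY2-ZLD embryos also differed from wild type NC10-14 and NC13-14 (log2 difference 1.29, SE 0.39, adjusted p = 0.0125; 1.09, adjusted p = 0.0597 without unlit replicate 3; 1.68, adjusted p = 0.0535 against wild type NC13-14 replicates 1 to 3). The death gene skl had 16.2, 19.1, 116 and 27.1 CPM in CRY2-ZLD embryos, against 2.91, 6.23, 5.6 and 4.05 CPM in wild-type embryos, replicate 3 being highest (log2 difference 3.25, SE 0.58, adjusted p = 8.61e-05; 1.91, adjusted p = 0.0143 without replicates 3 and 4). The gene p53 rose as well (log2 difference 1.64), with 38.02% of its exon bases shared with an antisense gene. The TNF ligand gene egr fell, with 139, 81.4, 16.98 and 76.4 CPM in CRY2-ZLD embryos, against 439, 417, 344 and 443 CPM in wild-type embryos (log2 difference -2.39, SE 0.48, adjusted p = 0.000308). Among 16 heat-shock genes 2 fell and 2 rose, against 16.5% and 16.9% of all genes. Hsp68 had 51.5, 81.3, 45.6 and 52.95 CPM in CRY2-ZLD embryos, against 10.2, 11.4, 14.5 and 10.1 CPM in wild-type embryos (log2 difference 2.33, SE 0.49, adjusted p = 0.000431), while the chaperone Hsp83 was lower (log2 difference -1.42; -1.08, adjusted p = 0.125 without replicates 3 and 4). In the oxidative stress list 4 of 15 fell and 0 rose (2 fell without CRY2-ZLD replicate 2 or 3 alone), the sensor Keap1 having 57.8, 49.7, 49.9 and 57.8 CPM in CRY2-ZLD embryos, against 188, 161, 196 and 180.4 CPM in wild-type embryos (log2 difference -1.75, SE 0.25, adjusted p = 4.45e-06). Wild-type embryos received the same light. Of the markers of later differentiated tissues 1 of 10 fell and 1 rose, and of the pole cell genes 3 of 13 fell and 2 rose. These lists and the oxidative stress list stand against the same 16.5% and 16.9% of all genes.

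**Figure D3:**
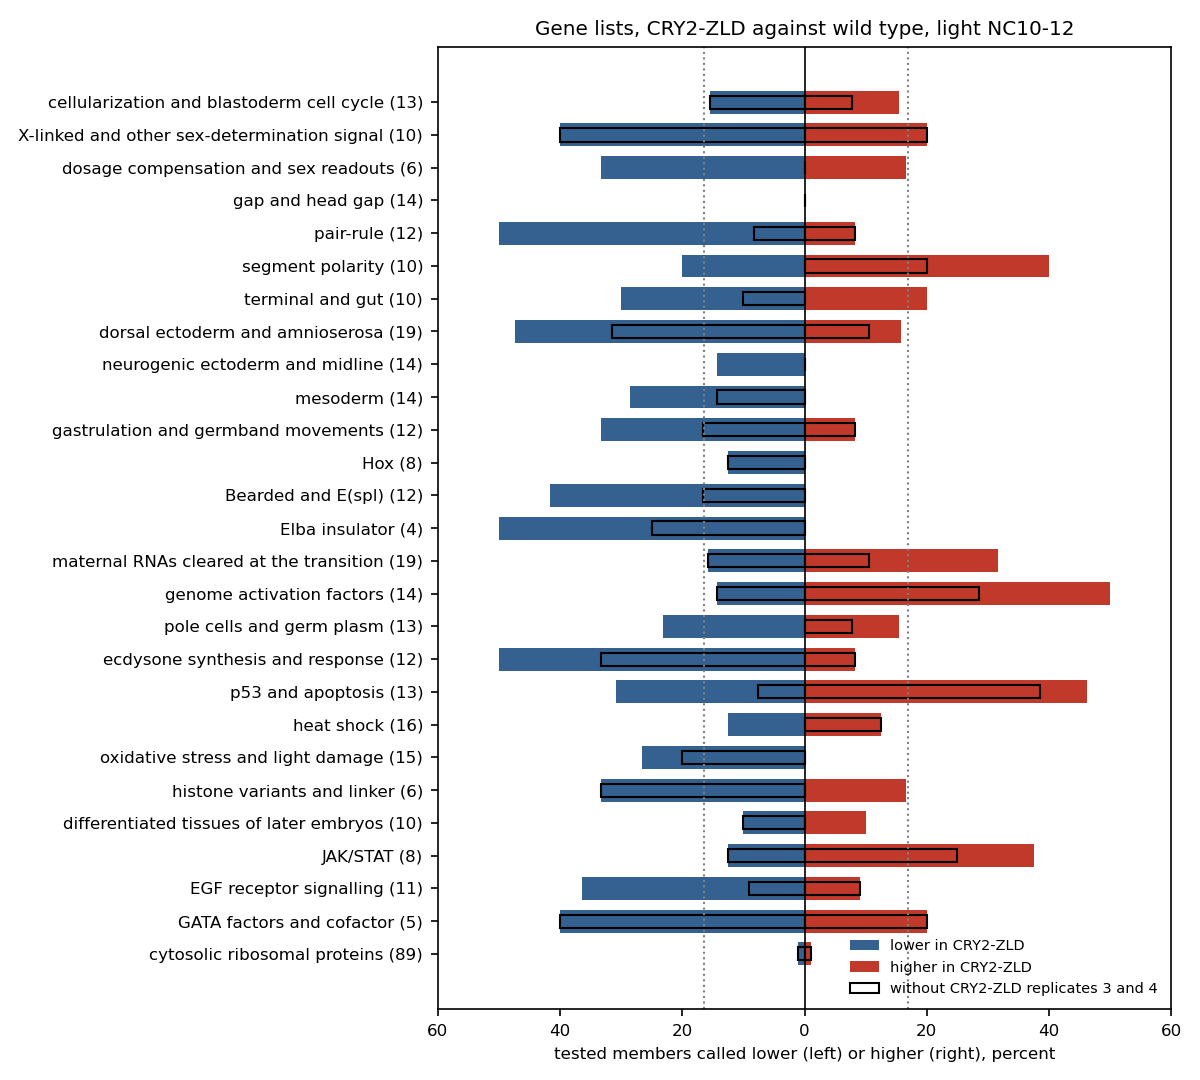
Share of the tested members of each gene list called lower (left of 0) and higher (right of 0) in CRY2-ZLD than in wild type at NC10-12, in percent, with filled bars for all libraries and outlines without CRY2-ZLD replicates 3 and 4. The number of tested members stands beside each name. Dotted lines mark the shares over all genes with all libraries, 16.5% lower and 16.9% higher. For the outlines the shares over all genes, not marked, were 8.28% lower and 8.32% higher. The gap and head gap list has no bar on either side.

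The largest differences were mostly outside the patterning genes, and most of them were also present in CRY2-ZLD embryos never lit. Of the 12 largest decreases 10 were called lower in unlit embryos, and of the 12 largest increases 9 were called higher and 2 lower, against the mean of wild type NC10-14 and NC13-14. Of all genes 15% were called lower and 16.6% higher in that comparison. The gene Mdh2, which encodes mitochondrial malate dehydrogenase, had 2.02, 3.22, 1.94 and 3.1 CPM in CRY2-ZLD embryos, against 309, 362, 382 and 325 CPM in wild-type embryos. The separation was near complete (log2 difference -7.06, SE 0.29, adjusted p = 1.44e-17), and unlit CRY2-ZLD embryos had 3.28, 3.13, 2.85 and 1.81 CPM (log2 difference -7.14, SE 0.29, adjusted p = 6.39e-18). Glutathione S-transferase genes of the GstE cluster were near 0. GstE8 had 0.0481, 0, 0.211 and 0.255 CPM in CRY2-ZLD embryos, against 29.03, 47.2, 44.9 and 32.9 CPM in wild-type embryos (log2 difference -8.15, SE 0.56, adjusted p = 1.53e-11). In unlit CRY2-ZLD embryos its difference was log2 difference -6.65, SE 0.49, adjusted p = 2.3e-11. GstE10 and GstE7 followed (log2 differences -8.30 and -5.49 at NC10-12, -10.08 and -5.62 unlit). Counting used no multi-mapping option, so reads that fit several of these related copies would be left out. The deubiquitinase gene Usp5 had 18.9, 15.4, 6.15 and 7.53 CPM in CRY2-ZLD embryos, against 199.8, 228, 235 and 226 CPM in wild-type embryos (log2 difference -4.21, SE 0.31, adjusted p = 2.9e-11; unlit -5.31). Acadvl, which encodes an enzyme of fatty acid oxidation, had 47.1, 43.8, 18.2 and 26.03 CPM in CRY2-ZLD embryos, against 253, 293, 301 and 293 CPM in wild-type embryos (log2 difference -3.08, SE 0.24, adjusted p = 1.79e-10; unlit -2.58). The gap-junction gene zpg was lower both lit and unlit (log2 differences -5.31 and -5.02).

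Among the increases mthl8, a G-protein-coupled receptor gene, had 21.01, 24.9, 17.7 and 18.4 CPM in CRY2-ZLD embryos, against 0, 0, 0 and 0 CPM in wild-type embryos. Its level was at least 568-fold higher in CRY2-ZLD, from a floor of 3 counts over the 4 wild-type libraries. Cyp4e2, a cytochrome P450 gene, had 11.01, 14.9, 17.9 and 16.04 CPM in CRY2-ZLD embryos, against 0, 0, 0 and 0 CPM in wild-type embryos, at least 418-fold higher on the same floor. Both were called in unlit embryos too. The gene CG5568 had 121, 139, 124 and 165 CPM in CRY2-ZLD embryos, against 0.955, 0.735, 0.304 and 1.89 CPM in wild-type embryos (log2 difference 7.09, SE 0.61, adjusted p = 7.67e-10; unlit 4.89). The kinase gene Tak1, with 166, 176, 255 and 281 CPM in CRY2-ZLD embryos, against 34.2, 25.8, 16.9 and 26.2 CPM in wild-type embryos, had the smallest adjusted p among the increases of the fit without replicates 3 and 4 (2.73, adjusted p = 2.11e-09; unlit 2.13). The homeobox gene ct and the replication factor gene RfC38 were higher lit and unlit (log2 differences 8.07 and 2.47 at NC10-12, 8.29 and 2.22 unlit). A few of the named genes did not follow this pattern. CG32365 rose at NC10-12, with 43.4, 68.4, 284 and 222 CPM in CRY2-ZLD embryos, against 1.53, 1.72, 3.29 and 1.41 CPM in wild-type embryos (log2 difference 6.29, SE 0.80, adjusted p = 9.17e-07), and was lower in unlit embryos (log2 difference -3.06; -1.08 against wild type NC13-14 alone, which did not pass the test). CG5002 and CG17122 fell at NC10-12 (log2 differences -6.65 and -5.37) and did not pass the test in unlit embryos (-0.22 and -0.86).

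**Figure D4:**
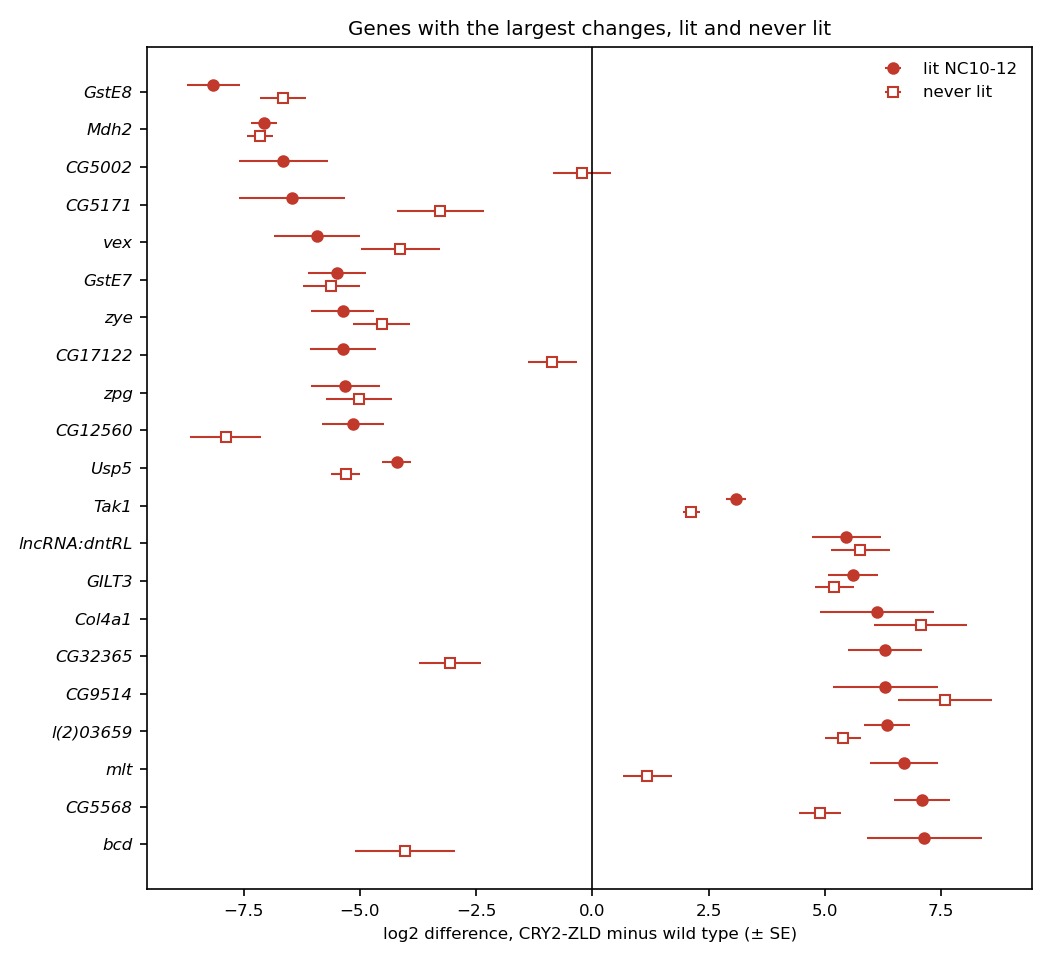
Log2 difference of CRY2-ZLD from wild type for the genes with the largest changes at NC10-12 that had at least 10 counts in each genotype, with Usp5 and Tak1, lit during NC10-12 (filled circles, with SE) above never lit (open squares, with SE, against the mean of wild type NC10-14 and NC13-14). Mdh2, GstE8 and Usp5 are low and CG5568, GILT3 and Tak1 high in both, while bcd and CG32365 lie on opposite sides of 0.

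Counted over all genes, the overlap with unlit embryos differed between references, and unlit wild type was not analysed here. The maternal RNA smg stood at 1411, 1986 and 1096 CPM in wild type NC10-14 and at 164, 213, 187 and 382 CPM in wild type NC13-14, and its part in the counts was not tested. Wild type NC13-14 replicate 4 had 4382299 counts, 8.53% of them nuclear ribosomal RNA, against at most 0.377% in the other libraries. Against wild type NC13-14 alone, a choice made after the data were seen, 424 genes (4.45%) were lower and 340 (3.57%) higher in unlit embryos. Of these, 201 were also lower at NC10-12, which is 12.8% of the NC10-12 decreases and 47.4% of the unlit ones, and 204 were also higher, 12.6% of the NC10-12 increases and 60% of the unlit ones. Without wild type NC13-14 replicate 4 the counts were 279 lower and 213 higher, of which 169 and 166 were called in the same direction at NC10-12. Against the mean of both wild types 1430 genes (15%) were lower and 1582 (16.6%) higher, of which 260 and 272 were called in the same direction at NC10-12 and 525 and 455 in the opposite one. Of the early genes, sisA was lower in unlit embryos as well (log2 difference -1.77, SE 0.50, adjusted p = 0.008; -1.77, adjusted p = 0.0676 against wild type NC13-14 replicates 1 to 3), and the unlit difference of tok was log2 difference 0.38, SE 0.43, adjusted p = 0.54 and that of srp was log2 difference -0.51, SE 0.52, adjusted p = 0.487.

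The genotype difference was not the same in every light window. The difference at NC10-12 minus that at NC10-14 was negative for 373 genes (3.92%) and positive for 461 (4.84%) at an adjusted p under 0.05, and the same contrast with NC13-14 gave 27 (0.284%) and 112 (1.18%). Leaving out single libraries moved these counts to 199 to 584, 242 to 611, 16 to 211 and 72 to 329. The NC10-14 counts fell by over 1.5 times without CRY2-ZLD NC10-12 replicate 4 (214 and 298) and wild-type NC10-12 replicate 1 (204 and 275), and the NC13-14 counts were 1.5 times higher or more without CRY2-ZLD NC10-12 replicate 1 (211 and 329), CRY2-ZLD NC10-12 replicate 2 (72 and 193) and wild-type NC10-12 replicate 3 (64 and 181). A positive value means that CRY2-ZLD was higher relative to its wild type when only NC10-12 was lit. Each window difference also holds any difference between the wild-type groups. Maternal smg, whose values are given above, was higher in every wild-type NC10-14 embryo than in every wild-type NC10-12 embryo. How much of the window differences comes from the wild-type embryos was not tested. Of the genes lower at NC10-12, 459 were also lower at NC10-14 (29.3% of the NC10-12 decreases, 63.6% of those at NC10-14, whose background was 7.58%), and 257 of the NC10-14 decreases (35.6%) were not called at NC10-12. The NC10-14 decreases had a median log2 difference of -1.44 at NC10-12 and -2.92 at NC10-14. For NC13-14 the shared decreases were 594 (37.9% of NC10-12, 69.8% of NC13-14, background 8.94%). Among increases, 744 genes (7.82%) were higher at NC10-14, of which 363 were also higher at NC10-12, and for NC14 alone 919 genes (9.65%) were lower and 742 (7.79%) higher, of which 493 and 478 were called in the same direction at NC10-12.

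Several lists of early zygotic genes held positive differences. Of the 13 cellularization genes 7 had a positive difference from NC10-14, as had 6 of 14 gap genes and 8 of 12 pair-rule genes. So had 7 of 19 dorsal genes and 4 of 4 genes of the Elba insulator list. Among all genes the share was 4.84%. The counts from NC13-14 were 4, 3, 5, 6 and 1, against 1.18% of all genes. Transcripts of ftz were at 142 ± 86.1 CPM in CRY2-ZLD embryos and 274 ± 25.1 CPM in wild-type embryos at NC10-12 (mean ± SD, n = 4 each), and at 0.393 ± 0.319 CPM and 197 ± 154 CPM at NC10-14 (n = 3 each). The difference between windows was log2 7.999, adjusted p = 1.93e-05, and from NC13-14 it was log2 6.45, adjusted p = 9.29e-05. For gt the 4 CRY2-ZLD embryos at NC10-12 had 172 ± 42.9 CPM and wild type 175 ± 20.8 CPM, while at NC10-14 the values were 12.2 ± 0.987 CPM in CRY2-ZLD embryos and 352 ± 198 CPM in wild-type embryos (log2 4.83, adjusted p = 1.25e-06 between windows). The ligand upd1 had 0.464 ± 0.424 CPM in CRY2-ZLD embryos at NC10-14 and 293 ± 170.3 CPM in wild-type embryos, and its difference between windows was log2 9.49, adjusted p = 3.59e-07. Positive differences were also called for sc (log2 9.46, adjusted p = 4.61e-07), zen2 (log2 8.99, adjusted p = 1.44e-06), tll (log2 5.63, adjusted p = 0.000379), tld (log2 6.33, adjusted p = 4.03e-07), slam (log2 3.56, adjusted p = 7.17e-05) and bnk (log2 7.28, adjusted p = 1.07e-05). For nullo the sign itself differed: the log2 difference was 4.94 at NC10-12 and -3.37 at NC10-14 (log2 8.31, adjusted p = 1.76e-05 between windows).

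**Figure D5:**
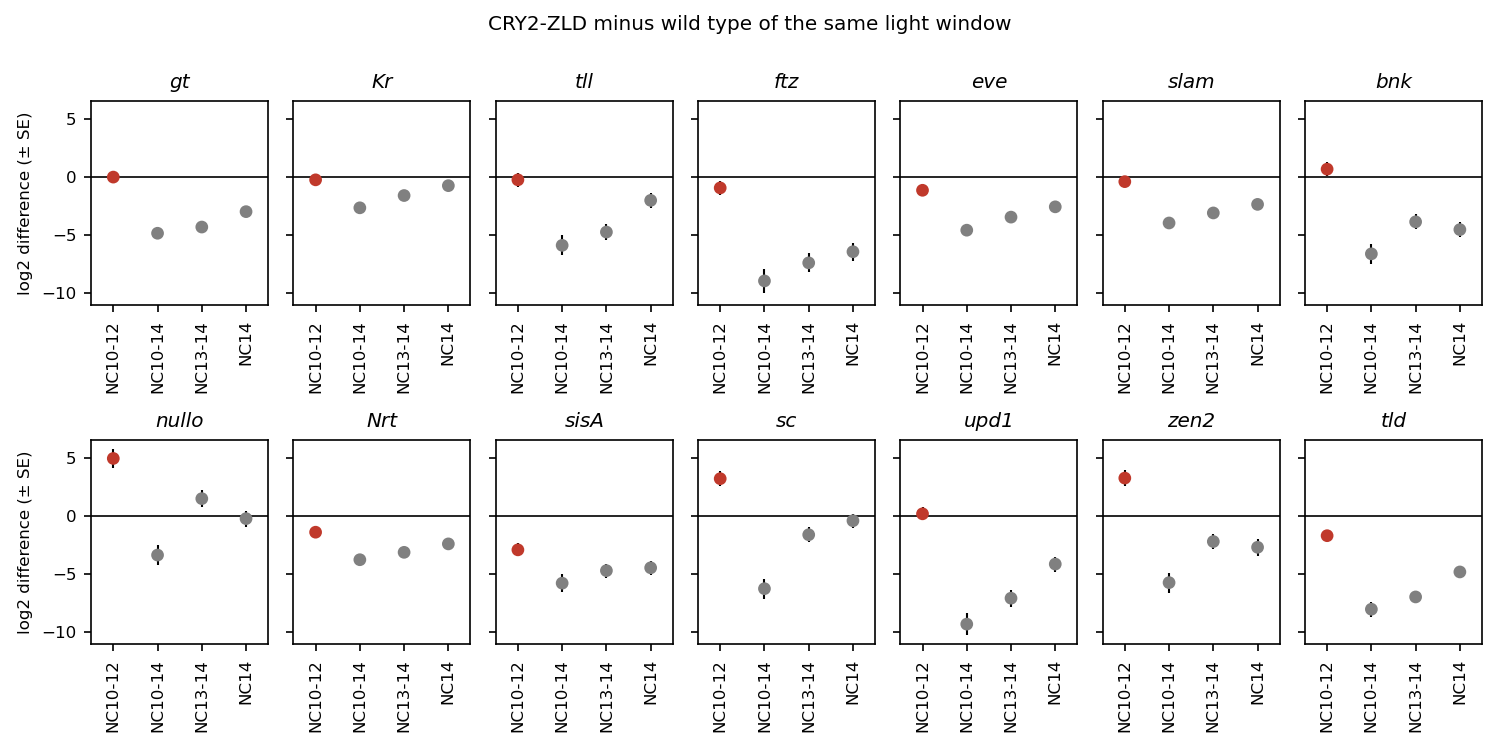
Log2 difference of CRY2-ZLD from wild type, with SE, for 14 genes in 4 light windows, each against wild type of the same window. At NC10-12 gt, Kr, tll, upd1 and slam lie near 0 and nullo, sc and zen2 above it, while at NC10-14 all 14 lie below 0.

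Genes with the opposite difference were lower relative to wild type at NC10-12 than in the longer window. Among those the naming rule picked, Dll, a homeobox gene of the limb primordia, was low at NC10-12, with 0.336, 0.636, 0.632 and 0.34 CPM in CRY2-ZLD embryos, against 15.2, 7.84, 6.7 and 11.4 CPM in wild-type embryos, and not at NC10-14 (log2 differences -4.38 and 2.68; log2 -7.07, adjusted p = 0.00278 between windows). ImpL2, an insulin-binding protein gene, had 3.75, 1.23, 4.64 and 6.51 CPM in CRY2-ZLD embryos, against 6.49, 3.92, 30.9 and 3.07 CPM in wild-type embryos (log2 -5.06, adjusted p = 0.019 between windows; -0.96, adjusted p = 0.692 without CRY2-ZLD NC10-14 replicate 1). Its call was also lost without wild-type NC10-14 replicate 1 or 2 or wild-type NC10-12 replicate 3. From the lists, ush (log2 -4.18, adjusted p = 0.00597), Blimp-1 (log2 -4.10, adjusted p = 0.0088; -2.03, adjusted p = 0.396 without CRY2-ZLD NC10-14 replicate 1) and the EGF-receptor pathway gene S (log2 -2.62, adjusted p = 0.000379) also had a negative difference from NC10-14. Wild-type embryos had 90.5 ± 26.1 CPM of Blimp-1 at NC10-12 (mean ± SD, n = 4) and 0.718 ± 0.508 CPM at NC10-14 (n = 3). As with smg, the wild-type embryos of the windows were thus not alike in this gene. From NC13-14, negative differences were called for rt, an O-mannosyltransferase gene (log2 -3.20, adjusted p = 0.018), for pes, a scavenger receptor gene (log2 -2.53, adjusted p = 0.0146), and for GstE8 (log2 -2.72, adjusted p = 0.0253). All 3 lost the call with ribosomal protein scaling (-3.09, adjusted p = 0.0972 for rt, -2.49, adjusted p = 0.0824 for pes and -2.76, adjusted p = 0.0677 for GstE8). The call of rt was also lost without CRY2-ZLD NC13-14 replicate 3 (-2.92, adjusted p = 0.0539) or wild-type NC10-12 replicate 1 (-2.85, adjusted p = 0.0597). That of GstE8 was lost without CRY2-ZLD NC13-14 replicate 4 (-2.57, adjusted p = 0.0551) or wild-type NC10-12 replicate 2 (-2.61, adjusted p = 0.0573). A positive difference was called for Nepl4, a neprilysin-like protease gene (log2 7.52, adjusted p = 0.000292).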

How the data were processed

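Poly(A) RNA of single embryos was made into libraries with a TruSeq kit, per the labels' protocols. The authors deposited 1 table of whole-number read counts for 17491 genes and 34 libraries, made with featureCounts 1.5.3 without strand or multi-mapping options, per the file headers. The assembly was dm6, per the submitters' processing notes. These notes also name Trimmomatic 0.36, HISAT2 2.1.0 and DESeq2 1.14.1. The column of exon lengths deposited with the counts (other unit) was used in no comparison. Symbols were matched by gene ID through an Ensembl gene table (17360 matched), and of 337 members of 28 lists 2 matched no gene. Exon bases shared with another gene also occur in named genes where no value is given above, such as RfC38 (25.2%), Clamp (17.3%), eve (16.7%) and srp (16.5%). No genome or promoter sequence was used here.

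Differences come from edgeR 4.0.16 in R 4.3.3, with TMM scaling and the quasi-likelihood functions glmQLFit and glmQLFTest, from 1 model of 9 group means. The filterByExpr function with a minimum count of 10 left 9519 genes, over which the Benjamini-Hochberg adjustment was made, with a threshold of 0.05. CPM are from TMM-scaled library sizes, and no pair of libraries was identical. Fold bounds use a floor of 3 counts over a group and cover counting error only, and 95% intervals of log2 differences come from the fit. The fit was tested on simulated data. Unlit embryos were set against the mean of wild type NC10-14 and NC13-14, or, chosen after the data were seen, NC13-14 alone, with and without its replicate 4.

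The members, lists and tests were chosen with earlier results of these data known. Genes named were taken from a panel of early genes (zld, His2Av, slam, nullo, bnk, halo, Nrt, ftz, eve, hry, gt, Kr, hb, tll, sna, twi, sog, zen, tld, sc, sisA, upd1, Sxl, Xrp1 and smg), the 12 largest decreases and 12 largest increases among called genes whose higher group averaged 10 CPM or more and whose libraries do not overlap, the 10 smallest p without CRY2-ZLD replicates 3 and 4 among those called in both fits, up to 4 of each list by smallest p, and the 4 largest called window differences in each direction that averaged 10 CPM or more in an NC10-12 group. The genes her, Doc1, Doc2, Doc3, tup, peb and C15 were added after their values were seen. Alternatives were DESeq2 size factors, scaling on ribosomal protein counts, no count filter, a mean of at least 5 CPM, DESeq2 1.42.0, limma-voom (limma 3.58.1) with sample weights, only the groups compared, a replicate block, and leaving out libraries.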

Additional observations from a re-analysis of the deposited data

Results flagged for a closer look

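Among the 200 sets of 4 libraries checked, 1 for each genotype of the 100 genes followed, chance sets a single library apart in about 1 in 20, and 16 were found. Wild-type replicate 3 stood apart for 7 genes. It had the lowest Sxl (123 CPM), her (13.6 CPM) and GATAd (12.5 CPM) of the wild-type embryos and the highest msl-2 (308.6 CPM), hb (768 CPM), opa (505 CPM) and CG32365 (3.29 CPM). Wild-type replicate 1 had the lowest srw (47.3 CPM) and Stat92E (223 CPM), and wild-type replicate 2 the lowest zld (422 CPM) and the highest C15 (0.049 CPM, the others being at 0). CRY2-ZLD replicate 3 had the highest mid (31.9 CPM), cad (172 CPM), skl (116 CPM), peb (15.6 CPM) and GstE10 (0.169 CPM) of its genotype.

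The genotype difference was tested between light windows and differed for these genes. Minus the difference at NC10-14, the log2 difference at NC10-12 was 7.999 for ftz, 4.83 for gt, 9.49 for upd1, 9.46 for sc, 8.99 for zen2, 5.63 for tll, 6.33 for tld, 3.56 for slam, 7.28 for bnk and 8.31 for nullo, and it was -7.07 for Dll, -5.06 for ImpL2, -4.18 for ush, -4.10 for Blimp-1 and -2.62 for S. Minus the difference at NC13-14 it was 6.45 for ftz, -3.20 for rt, -2.53 for pes, -2.72 for GstE8 and 7.52 for Nepl4.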

How the results depend on the processing

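Of the 100 genes whose NC10-12 difference is given above, 82 were called, 60 of them under every alternative, and none of those called changed sign. Scaling on ribosomal protein counts gave 890 lower genes at NC10-12 in place of 1567, 124 negative and 188 positive differences from NC10-14, 7 and 70 from NC13-14, and 904 genes lower in unlit embryos. Without CRY2-ZLD replicates 3 and 4 the NC10-12 counts were 788 lower and 792 higher, and the window differences were 205 and 205 from NC10-14 and 11 negative from NC13-14. DESeq2 gave 672 negative differences from NC10-14 and 112 negative and 286 positive ones from NC13-14. With limma-voom the NC13-14 counts were 569 and 463, and with only the groups compared there were 120 negative differences from NC10-14 and 73 from NC13-14. With wild type NC13-14 alone as reference the unlit counts were 424 lower and 340 higher, and with its replicates 1 to 3 alone 279 and 213. Leaving out single libraries gave 1226 to 1638 lower and 1270 to 1654 higher genes at NC10-12, 199 to 584 negative and 242 to 611 positive differences from NC10-14, 16 to 211 and 72 to 329 from NC13-14, and 1032 to 1419 lower and 1149 to 1557 higher genes in unlit embryos. Beside the libraries named above, the NC10-14 counts moved by over 1.5 times without wild-type NC10-14 replicate 1 (296 positive) and 2 (199 negative, 278 positive), CRY2-ZLD NC10-14 replicate 4 (242 positive) and CRY2-ZLD NC10-12 replicate 1 (584 negative), and the NC13-14 counts without CRY2-ZLD NC10-12 replicate 4 (17 negative), CRY2-ZLD NC13-14 replicate 2 (16 negative) and 3 (72 positive), wild-type NC10-12 replicate 1 (16 negative) and wild-type NC13-14 replicate 3 (17 negative).

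Of the differences that missed the threshold, these changed sign. For gt the log2 difference was 0.11 with limma-voom, 0.21 with ribosomal protein scaling, 0.23 without CRY2-ZLD replicates 3 and 4, and -0.15 to 0.13 without single libraries, positive without CRY2-ZLD replicate 3 (0.13) or 4 (0.0056) or wild-type replicate 2 (0.0091) or 3 (0.037). For tll it was 0.15 without CRY2-ZLD replicates 3 and 4 and -0.47 to 0.0071 without single libraries, positive without wild-type replicate 2, for hb -0.31 without CRY2-ZLD replicates 3 and 4, for upd1 -0.017 with limma-voom and -0.23 to 0.39 without single libraries, negative without CRY2-ZLD replicate 2, for His2Av 0.089 with ribosomal protein scaling, and for tok in unlit embryos -0.27 against wild type NC13-14 alone and -0.46 against its replicates 1 to 3. For peb it was 0.26 with limma-voom and -0.93 to 0.52 without single libraries, positive without CRY2-ZLD replicate 1 (0.069) or 4 (0.021) or wild-type replicate 1 (0.52). The calls of eve, htl, NetA and Elba1 at NC10-12 were lost with ribosomal protein scaling, those of Ilp4 and NetA with only the groups compared, and the window differences of ImpL2, ush and Blimp-1 from NC10-14 with limma-voom. Where no value above shows it, the cause was not tested.

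Whether the replicate numbers pair the embryos was not tested. Deviations of same-numbered CRY2-ZLD and wild-type libraries correlated at 0.24, 0.017, 0.28 and 0.016. Those of differently numbered libraries correlated at -0.28 to 0.26. With the replicate number as a block 1605 genes were lower and 1585 higher at NC10-12, 341 and 434 differed from NC10-14, 29 and 104 from NC13-14, and 1408 and 1607 in unlit embryos. A search of promoters for the Zelda motif was not run. Single embryos, 4 a genotype, and library totals limit what low genes can show.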
